A study of Homo sapiens with 3 samples.

Results

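The 10 genes described here encode cytokines, chemokines and surface or secreted ligands that microglia, the resident macrophages of the brain, can sense through their receptors. They were taken as a listed set, by symbol, from gene tables of 62754 genes, and all 10 symbols matched 1 gene each. RNA came from wild-type primitive neural progenitor cells (pNPCs), an early neural stage derived from H1, an established human embryonic stem cell line, and the labels give a single group of 3 replicates. Per the labels the culture medium held N2 and B27-RA supplements, FGF2, the GSK3 inhibitor CHIR99021, human LIF, SB431542 (an inhibitor of TGF-beta type I receptors) and the ROCK inhibitor Y-27632, so all 3 libraries share these agents. No untreated, other-genotype or microglia-exposed group was analysed here, and all values come from a single cell line. Nothing in the labels tells if separate cultures were sampled, so the spread between replicates, and any p from it, may be technical.

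Microglia depend on CSF1R, a receptor kinase with the alternative ligands CSF1 and IL34, for survival and proliferation. Their movement is directed by chemokines such as CX3CL1, CCL2 and CXCL12 and by the cytokine MIF. Contact signals such as CD200, CD47 and CD24 restrain activation or engulfment, whereas GAS6 bridges exposed phosphatidylserine to the TAM receptors TYRO3, AXL and MERTK and promotes engulfment. The study's title places these cells in work on human neurons and glia in chimeric brains.

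Libraries held between 30038114 and 38400092 expected counts, the RSEM estimate of reads per gene. TPM is the expected count scaled for effective transcript length and library size, and a gene is called detected at a TPM of at least 1 in every library. Neural progenitor markers were detected in 10 of 11 cases, led by VIM, NES and FABP7, although PAX6, a defining neural progenitor factor, had 0.13, 0.81 and 0.38 TPM in replicates 1, 2 and 3. The other marker lists had 10 of 10 neuron, 10 of 10 mesenchyme, 7 of 7 neural crest, 3 of 7 astrocyte, 2 of 8 endothelium, 3 of 6 epithelium and 1 of 6 pluripotency genes detected. Over all protein-coding genes 62.2% were detected, a share that the astrocyte, endothelium, epithelium and pluripotency lists did not reach. Replicate 1 stood apart, with a chi-square per degree of freedom of 82.4 and 82.5 against replicates 2 and 3 and of 19.4 between the latter pair. RSEM's lengths differ from its effective lengths by 216, 253 and 259 bases in replicates 1, 2 and 3 (median over genes above 3000 bases), so short transcripts were scaled differently in replicate 1.

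Of the 10 ligand genes 9 were detected, against 62.2% of protein-coding genes and 23.0% of all genes. IL34 was the exception. The ligand genes and the marker and other lists were chosen with earlier results of these data known, so such shares are a description and no test of enrichment. Mean TPM spanned a wide range, from 1201 ± 43.2 for MIF to 0.62 ± 0.30 for IL34 (SD, n = 3). In falling order the means were MIF, CCL2, CD24, GAS6, CD200, CD47, CSF1, CXCL12, CX3CL1 and IL34. MIF, CCL2 and CD24 together made up 94.4%, 94.8% and 94.2% of the summed TPM of the 10 genes in replicates 1, 2 and 3. The median of log2(TPM + 1) over the 10 genes, with the undetected IL34 included, was 4.73, 4.49 and 4.60. Over all protein-coding genes the median was 2.66, 2.93 and 2.99, and over the detected ones alone it was 4.30, 4.51 and 4.54. Outside the 3 leading genes, the detected ligand genes lay between 7.71 and 29.2 mean TPM.

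**Figure D1:**
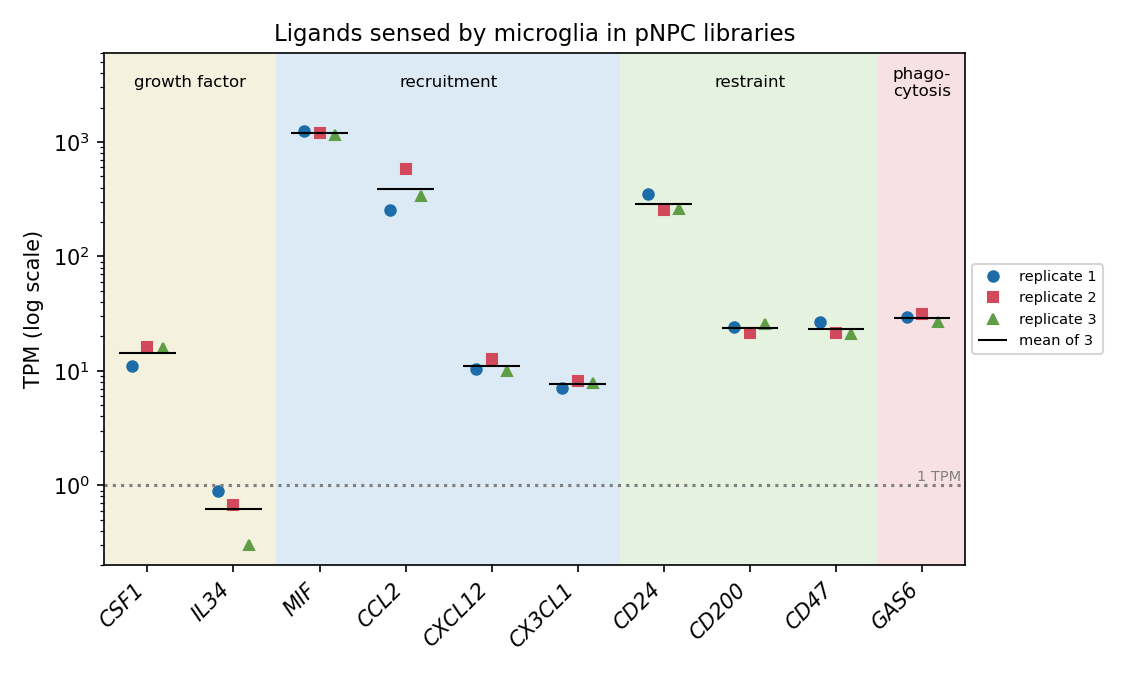
TPM on a log scale (vertical axis) of each ligand gene, grouped by role, with 1 symbol per replicate, a bar at the mean of 3 and a dotted line at 1 TPM. MIF lies between 1155 and 1240.3 TPM, CCL2 and CD24 lie between 252 and 584 TPM, and IL34 alone lies below the dotted line in every library.

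Neighbours in this order were compared by their within-library difference in log2(TPM + 1), with no p because the order was read from the same values. CCL2 and CD24 did not differ beyond their spread, at 0.37 ± 0.83, with CD24 higher in replicate 1 and CCL2 higher in the other libraries. CD200 and CD47 did not either, at 0.05 ± 0.20, and their TPM ranges overlapped. CSF1 exceeded CXCL12 in 3 of 3 libraries, by 0.34 ± 0.26, but the ranges of their TPM overlapped across libraries. GAS6 exceeded CD200 by 0.28 ± 0.24, with only 0.06 in replicate 3. The remaining 5 neighbour pairs kept their order in 3 of 3 libraries and their ranges did not overlap, with 3.25 ± 0.26 between CD24 and GAS6 and 2.44 ± 0.34 between CX3CL1 and IL34. As ratios of mean TPM these steps were 9.88-fold and 12.4-fold, since log2(TPM + 1) compresses low values.

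Growth factors of microglia were represented almost wholly by CSF1 (ENSG00000184371.14, chromosome 1, 109910506 to 109930992, GRCh38), a secreted or membrane-bound cytokine. It had 11.1, 16.1 and 15.7 TPM in replicates 1, 2 and 3, from 935, 1445 and 1058 expected counts. Replicate 1 was thus the lowest, and the mean of 14.3 ± 2.77 TPM lay above 61.7% of protein-coding genes. IL34 (ENSG00000157368.12, chromosome 16, 70579899 to 70660682), which neurons of the mature brain are known to make, rested on only 11, 23 and 8 expected counts. These gave 0.90 TPM in replicate 1 (Poisson 95% interval 0.45 to 1.61), 0.67 TPM in replicate 2 (0.42 to 1.00) and 0.30 TPM in replicate 3 (0.13 to 0.59), intervals that cover counting error only. The IL34 intervals overlap between libraries, but such overlap is no test of a difference between replicates.

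The IL34 order by replicate depended on the length estimate. RSEM gave IL34 an effective length of 481 bases in replicate 1 but 1326 and 1307 bases in replicates 2 and 3. In CPM, the count scaled to the library total with no length term, IL34 stood at 0.32, 0.60 and 0.27, highest in replicate 2 and not in replicate 1. CSF1 exceeded IL34 by 3.24 ± 0.52 in log2(TPM + 1), in 3 of 3 libraries (p = 0.25 in an exact two-sided sign-flip test over 3 libraries, or 0.333 after Benjamini-Hochberg adjustment over 8 pairs). With 3 libraries 0.25 is the smallest p this test can give, so no pair could reach 0.05.

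Among the recruitment signals MIF (ENSG00000240972.2, chromosome 22, 23894383 to 23895223), an inflammatory cytokine made by many cell types, was the highest. Its TPM was 1240.3, 1207 and 1155 in replicates 1, 2 and 3, and its CV of 3.60% was below that of all but 6.85% of detected protein-coding genes, whose median CV was 13.7%. In CPM, however, MIF had 308, 247 and 230.4, highest in replicate 1. Its effective length was 339 bases in replicate 1 against 302 and 296 bases in the others, and its replicates were closer together in TPM than in CPM. By mean TPM MIF ranked 125 among protein-coding genes. The opposite-strand gene MIF-AS1 overlaps it and held 55.2, 28.2 and 32.7 expected counts, against 10686, 9479 and 6921 for MIF. On the same strand the protein-coding gene AP000350.4 also overlaps MIF and held 10.5, 7.8 and 1.67 expected counts. The sources used here do not say if strand was kept, so reads of the MIF-AS1 overlap cannot be told apart. Strand would not separate AP000350.4 from MIF.

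CCL2 (ENSG00000108691.10, chromosome 17, 34255285 to 34257203), the chemoattractant of monocytes that signals through CCR2, was second with 252, 584 and 339.9 TPM. The expected counts were 3430, 7609 and 3398, which made replicate 2 the highest by far. The mean of 392 ± 172 TPM placed CCL2 above 98.4% of protein-coding genes. Its CV of 43.9% was also the largest of the 9 detected ligand genes. In log2 CPM replicate 2 lay 0.91 above the mean of the other libraries, a deviation larger in size than that of 96.5% of the genes tested, and 1.01 above it once a smooth trend on gene length was removed. In a bulk sample a higher share of CCL2-expressing cells and more CCL2 RNA per cell cannot be told apart.

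CXCL12 (ENSG00000107562.18, chromosome 10, 44370165 to 44385097), the ligand of CXCR4 that guides migrating progenitors and neurons as well as immune cells, was far lower. It stood at 10.4, 12.7 and 9.95 TPM, from 647, 727 and 507 expected counts. The libraries were close, and the mean of 10.99 ± 1.45 TPM lay above 57.1% of protein-coding genes. CX3CL1 (ENSG00000006210.7, chromosome 16, 57372490 to 57385044), or fractalkine, a membrane-tethered chemokine known mainly from neurons, had 7.12, 8.09 and 7.91 TPM. Its 545, 641 and 487 expected counts corresponded to 15.7, 16.7 and 16.2 CPM, the tightest of the set on that scale.

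MIF exceeded CXCL12, with which it shares the receptor CXCR4, by 6.65 ± 0.16 in log2(TPM + 1). CXCL12 minus CCL2 was -4.95 ± 0.47, and CXCL12 exceeded CX3CL1 by 0.46 ± 0.15. Each of these 3 differences had the same sign in 3 of 3 libraries and the smallest exact p, 0.25 (adjusted 0.333). The recruitment group as a whole carried 77.4%, 83.9% and 81.2% of the summed TPM of the 10 genes, and MIF alone 63.6%, 55.9% and 62.0%.

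**Figure D2:**
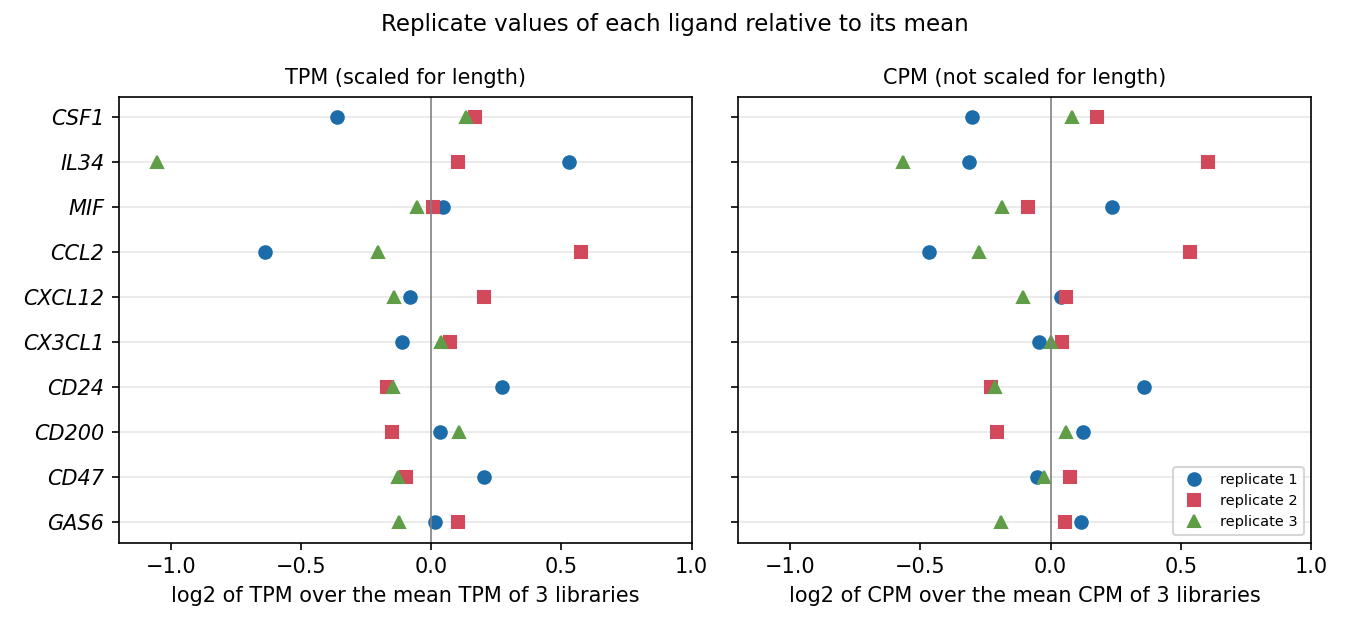
Value of each ligand gene in each replicate as log2 of its TPM (left) or CPM (right) over the mean of the 3 libraries. The symbols of MIF nearly coincide in TPM but spread in CPM, those of CD47 do the reverse, and CCL2 spreads in both, from 252 to 584 TPM.

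Spread between replicates was tested across 17046 genes with an edgeR intercept-only fit, which asks whether a gene varies more than others of its level. After Benjamini-Hochberg adjustment 1.55% of the genes tested were called, and 0 of the 9 ligand genes tested were. IL34 did not pass the filter on low counts, and without a filter it was not called either. In the edgeR fit CCL2 alone had an unadjusted p under 0.05, as 7.60% of all genes tested did, and its adjusted p was 0.312. DESeq2's dispersion trend and size factors also called 0 of the 9, with 1 at an unadjusted p under 0.05. Without replicate 1 CCL2 was called, with an edgeR adjusted p of 0.00126, and without replicate 2 its adjusted p was 1.00, the lowest and the highest over the alternatives run. In simulated data the test recovered 12% of 50 genes changed 2-fold in 1 library and 52% of 50 changed 4-fold. The changed genes were drawn at random from all levels. Recovery at the level of CCL2, whose range was 2.32-fold in TPM and 2.00-fold in CPM, was therefore not measured.

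Other chemokines were mostly low, with 6 of 20 genes detected, against 62.2% of protein-coding genes. The highest were the neutrophil attractants CXCL1 at 12.4, 31.3 and 19.2 TPM, CXCL2 at 8.65, 16.3 and 7.60 TPM and CXCL8 at 4.60, 12.6 and 5.01 TPM in replicates 1, 2 and 3. All 6 detected members had their highest TPM in replicate 2, as CCL2, CXCL12 and CX3CL1 did, whereas MIF was highest in replicate 1. The share of all detected genes that were highest in replicate 2 is not given here. The other 3 detected members of the list, picked out with their values known, were CXCL14 at 7.21 ± 4.48, CXCL13 at 2.23 ± 1.41 and CCL20 at 1.74 ± 0.33 TPM. Of the 8 members of the list that were tested, 0 were called for excess spread by edgeR after adjustment (1.55% of all genes tested were), and their median deviation in replicate 2 was 0.96 log2 CPM above the other libraries. The homing chemokines CCL19 and CCL21 had 0 counts throughout, which still allows 0.547 and 0.313 TPM, the level of 3 counts where that level is highest. CXCL1 and CXCL2 are close copies of each other. Their expected counts were whole numbers, 300, 741 and 350 for CXCL1 and 180, 344 and 129 for CXCL2 in replicates 1, 2 and 3. No fractional split of reads between them thus shows, and misplaced reads were not tested.

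**Figure D3:**
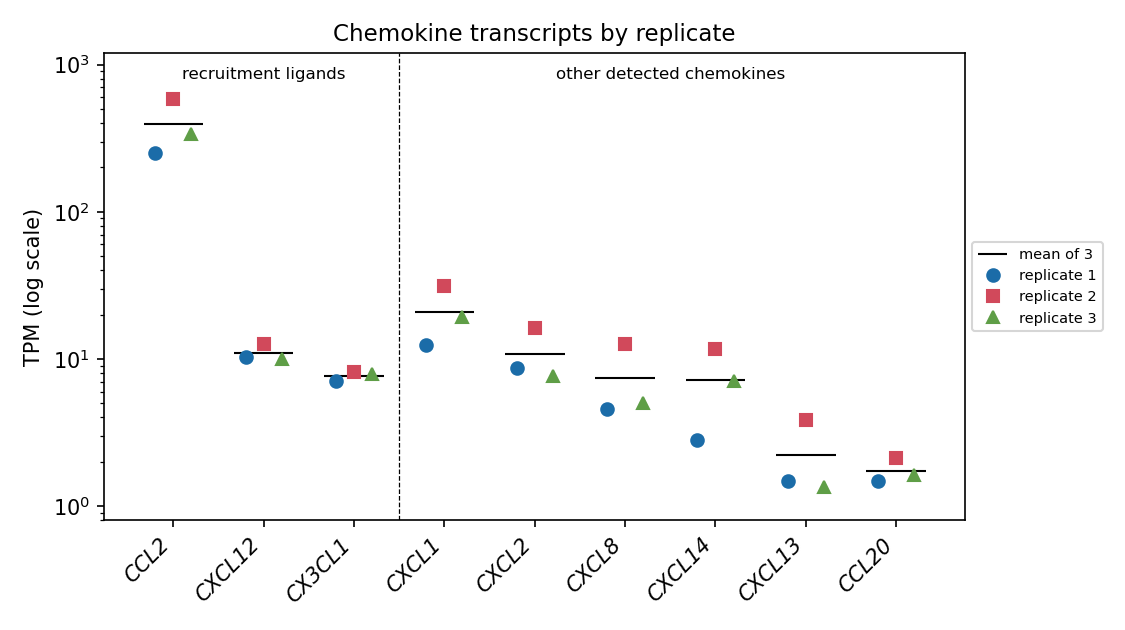
TPM on a log scale (vertical axis) of 3 chemokines of the ligand set (left of the dashed line) and the 6 other detected chemokines (right), with 1 symbol per replicate and a bar at the mean. Replicate 2 is the highest symbol for each of these genes, with CCL2 at 584 TPM and CXCL1 at 31.3 TPM.

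Markers of mesenchyme had their highest summed TPM in replicate 2. Their summed TPM was 669, 1410.2 and 992 in replicates 1, 2 and 3, with 8 of the 10 genes highest in replicate 2 and 8 of 10 lowest in replicate 1. Neuron markers had a summed TPM of 1096, 688 and 621, most of it from TUBB3 and NEFM, with 6 of the 10 genes highest and 2 lowest in replicate 1. The shares of all detected genes highest or lowest in a given replicate are not given here, so these marker counts have no background. No mesenchyme marker was at 0, and the part of these cells in the chemokine values was not tested. Microglia markers summed to 14.7, 20.3 and 20.1 TPM, most of it from TMEM119 at 15.7 ± 2.76 TPM, a gene also known from osteoblasts and other mesenchyme. Only TMEM119 of the 16 microglia markers was detected, against 62.2% of protein-coding genes. AIF1 followed at 1.20 ± 0.59 and CD68 at 0.65 ± 0.72 TPM, and C1QA and C1QC had 0 counts (floors 0.142 and 0.155 TPM). Apart from TMEM119 and AIF1, the microglia markers thus had mean TPM under 1 in these cultures, with P2RY12 at 0.38 ± 0.14.

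The restraint signals were led by CD24 (ENSG00000272398.6, chromosome 6, 106969831 to 106976855), a small lipid-anchored surface protein abundant on neural progenitors that Siglec-10 recognises. It had 348, 256 and 261 TPM in replicates 1, 2 and 3, from 17049, 12586 and 9950 expected counts. Replicate 1 was the highest, 0.59 log2 CPM above the mean of the others and 0.53 above it with the length trend removed. The neural progenitor markers also had a positive median deviation there, 0.59 log2 CPM over 10 genes tested, and so did the neuron markers, 0.63 over 10 genes. The progenitor list was mixed, with 5 of 10 detected genes highest and 2 lowest in replicate 1, again with no share of all detected genes beside it. Its summed TPM was 2624, 2689 and 2365 in replicates 1, 2 and 3, highest in replicate 2. The part of either list in the CD24 value was not tested. CD24 has processed copies in the genome, and those named CD24P in the tables held 3 counts in all, in replicate 2.

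CD47 (ENSG00000196776.17, chromosome 3, 108043091 to 108091031), the widely expressed ligand of SIRPA that blocks engulfment, had 26.5, 21.6 and 21.1 TPM. The effective length given to CD47 was 2146 bases in replicate 1 against 3120 and 2994 bases in the others. In CPM its values were 41.7, 45.6 and 42.6, so replicate 1, the highest in TPM, was the lowest without the length term. CD200 (ENSG00000091972.18, chromosome 3, 112332573 to 112362812), an immunoglobulin-family protein of neurons and other cells that quiets myeloid cells through CD200R1, had 24.4, 21.5 and 25.7 TPM. Its effective length was steady, from 1682 to 1716 bases, and replicate 2 was the lowest on both scales. The overlapping non-coding gene AC112487.1 held 22, 16.3 and 36 expected counts.

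CD47 minus CD200 was -0.05 ± 0.20 in log2(TPM + 1), with CD47 higher in replicates 1 and 2 and lower in replicate 3 (exact sign-flip p = 1.00, adjusted 1.00). The values per library were 0.12, 0.01 and -0.27. The sign turned without replicate 3, to 0.06. CD24 exceeded CD47 by 3.58 ± 0.08, or 12.5-fold in mean TPM, in 3 of 3 libraries (exact sign-flip p = 0.25, adjusted 0.333).

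The bases before the listed start of CD47 and before an internal start of CD200 differed in composition. RefSeq start regions of GRCh38.p14 were matched for 6 of the 10 genes (CXCL12, MIF, CD47, CD200, CD24 and GAS6), and the 250 bases before the start were read. The CD200 start in that table is an internal one, downstream of the gene's first base given above, so its stretch lies within the gene, whereas that of CD47 lies outside its gene. The CD47 and CD200 stretches are shown because the level of the pair did not differ beyond its spread. In both, capitals mark the GC box GGGCGG or the TATA box TATAAA on either strand, and the CD200 stretch ends 88 bases before the start, where an annotated untranslated exon begins. CD47 is chr3:108091032-108091281 on the minus strand and CD200 is chr3:112332906-112333067 on the plus strand.
CD47: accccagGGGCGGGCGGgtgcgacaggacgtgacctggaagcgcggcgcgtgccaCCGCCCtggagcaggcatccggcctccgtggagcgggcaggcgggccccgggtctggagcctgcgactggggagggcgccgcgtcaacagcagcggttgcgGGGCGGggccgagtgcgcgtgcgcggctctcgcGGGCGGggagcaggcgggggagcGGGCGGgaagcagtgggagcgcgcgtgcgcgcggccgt
CD200: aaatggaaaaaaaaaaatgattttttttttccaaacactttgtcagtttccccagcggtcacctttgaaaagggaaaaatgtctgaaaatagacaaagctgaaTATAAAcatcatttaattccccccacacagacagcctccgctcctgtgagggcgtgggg

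In the 250 bases the CD47 region held 39 CpG dinucleotides and 6 GC boxes, 2 of which overlap, and the CD200 region 9 CpG and 0 GC boxes but 1 TATA box, 147 bases before the start. The median over 35116 such regions was 11 CpG, and 42.6% of them held a GC box and 10.7% a TATA box. CXCL12, MIF and GAS6 had 31, 28 and 31 CpG, with 3 GC boxes each, and the 3 CD24 starts had 17, 27 and 20 CpG. The AP-1 site TGANTCA, the cAMP response element TGACGTCA and the E-box CACGTG, searched on both strands, were in none of the matched regions (in 6.57%, 1.65% and 6.34% of all regions), and CCAAT was in 1 CD24 region (32.0%). These counts describe letters and not binding. The relation of CpG count to level was not tested.

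The phagocytosis signal GAS6 (ENSG00000183087.15, chromosome 13, 113820549 to 113864076), a vitamin K-dependent bridging protein, had 29.45, 31.3 and 26.8 TPM in replicates 1, 2 and 3, from 1708, 1813 and 1195 expected counts. The libraries were close, and the mean of 29.2 ± 2.30 TPM lay above 75.2% of protein-coding genes. PROS1, or protein S, the other TAM ligand of this kind, was higher at 39.5, 51.3 and 39.8 TPM. GAS6 minus PROS1 was -0.55 ± 0.14 in log2(TPM + 1), negative in 3 of 3 libraries (exact sign-flip p = 0.25, adjusted 0.333). Both ligands were thus present, with PROS1 the more abundant in each library. The opposite-strand gene GAS6-AS1 held 9, 21.0 and 29 expected counts.

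Of the receptors of these ligands 10 of 16 were detected, near the 62.2% of protein-coding genes. Receptors that mark microglia and other myeloid or lymphoid cells were at or near 0. CSF1R had 0, 0 and 0.11 TPM, CX3CR1 0.04, 0.03 and 0 TPM and CCR2 0 counts (floor 0.0960 TPM). CXCR2 at 0.04 ± 0.06, CD200R1 at 0.10 ± 0.03 and SIGLEC10 at 0.18 ± 0.11 TPM were also undetected. CSF1, CX3CL1, CCL2, CD200 and CD24 were thus transcribed in cultures with almost no transcript of their cognate receptors.

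Receptors with wider expression were present. CXCR4 had 10.8, 8.67 and 8.93 TPM, and CXCL12 exceeded it by 0.19 ± 0.28 in log2(TPM + 1), in 2 of 3 libraries (exact sign-flip p = 0.50, adjusted 0.571). The CXCL12 scavenger ACKR3 had 4.10, 16.6 and 17.3 TPM, lowest in replicate 1. Among 10 receptors tested ACKR3 alone was called for excess spread (edgeR adjusted p = 0.00931), against 1.55% of all genes tested. CD74, the MIF receptor better known as the class II invariant chain, stood at 34.5 ± 5.20 TPM and its partner CD44 at 3.41 ± 1.91 TPM. SIRPA, the CD47 receptor, was at 13.3 ± 1.78 TPM. TYRO3 at 34.9 ± 5.15 TPM led the TAM receptors, with MERTK at 6.16 ± 1.18 and AXL at 4.69 ± 1.51 TPM. The alternative IL34 receptors PTPRZ1 and SDC1 reached 45.4 ± 2.25 and 80.9 ± 19.6 TPM, far above IL34 itself.

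**Figure D4:**
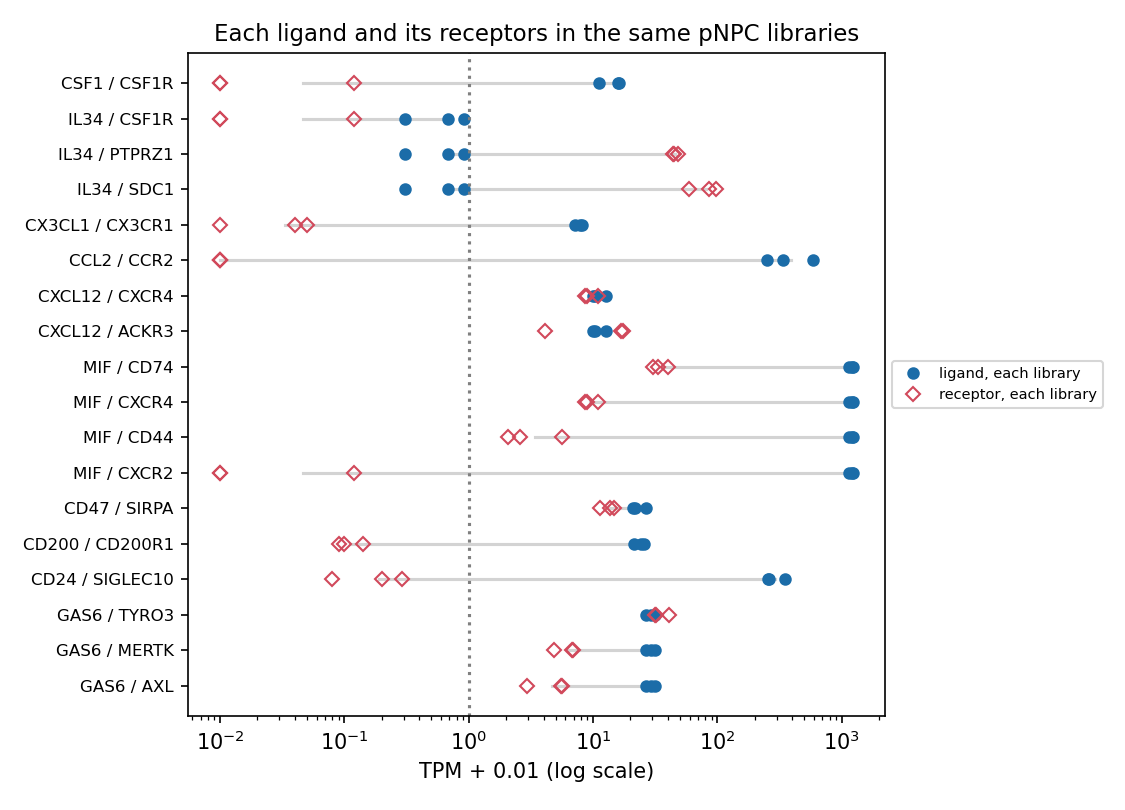
TPM plus 0.01 on a log scale (horizontal axis) of each ligand (filled circles) and receptor (open diamonds) in the 3 libraries, 1 row per ligand and receptor pair, with a grey line between the means and a dotted line at 1 TPM. The receptors CSF1R, CX3CR1, CCR2, CXCR2, CD200R1 and SIGLEC10 lie left of the dotted line in every library, and TYRO3, at 31.6 to 40.8 TPM, lies just right of GAS6, at 26.8 to 31.3 TPM.

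Enzymes that process the ligands were detected in 5 of 7 cases, near the 62.2% of protein-coding genes. The sheddases ADAM10 and ADAM17, which release CX3CL1 from the membrane, had 63.0, 133.8 and 114.7 TPM and 13.2, 25.8 and 25.2 TPM in replicates 1, 2 and 3, lowest in replicate 1 for both. Their expected counts, not scaled for depth, were 4288, 6116 and 4477 for ADAM10 and 1185, 2139 and 1597 for ADAM17. TPM also carries RSEM's effective length, and the part of that length in the low replicate 1 values was not tested. QPCTL, which modifies the amino terminus of CD47 for SIRPA binding, stood at 14.8 ± 1.70 TPM. VKORC1 and GGCX, of the vitamin K cycle that GAS6 and PROS1 need, were at 78.6 ± 2.61 and 18.2 ± 3.53 TPM. DPP4, which trims CXCL12, had 1.76, 1.56 and 0.98 TPM and so missed detection in replicate 3 alone, and QPCT was at 0.48 ± 0.17 TPM. Of the 7 enzymes 0 were called for excess spread by edgeR after adjustment, against 1.55% of all genes tested.

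Among other ligands that microglia can sense, 9 of 22 cytokines and growth factors were detected, a lower share than the 62.2% of protein-coding genes. The heparin-binding factor MDK at 1884 ± 14.8 TPM, the nuclear and secreted protein HMGB1 at 1198 ± 90.1 TPM and PTN at 246.6 ± 55.1 TPM were the highest, while CSF2 and IL13 had 0 counts (floors 0.280 and 0.167 TPM). HMGB1 has many processed copies in the genome, so its level is uncertain. The MIF homologue DDT, also picked out with its value known, had 95.1 ± 5.39 TPM, well below MIF. Of 9 other ligands that promote engulfment 8 were detected, against the same 62.2%, led by the chaperone CALR at 689 ± 118, the lipid carrier APOE at 167.6 ± 26.9 and CLU at 102 ± 19.5 TPM, and C1QA had 0 counts. Of 7 other restraint signals 5 were detected, again near the 62.2% of protein-coding genes, led by the class I light chain B2M at 305 ± 39.5, APMAP at 76.3 ± 2.65 and the complement inhibitor CD59 at 74.7 ± 14.5 TPM. The checkpoint ligand CD274 at 0.15 ± 0.13 TPM was not detected.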

How the data were processed

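Polyadenylated RNA of 3 wild-type pNPC libraries (1 group, from the titles) was measured by RNA-seq. Per the submitters' processing notes the tools were Trim Galore 0.6.10, STAR 2.7.11a and RSEM 1.3.1 with GRCh38; no source used here gives their order or the annotation release. Each library has an RSEM gene table, per the file headers. Its deposited expected count is an unnormalized estimate of reads per gene. Its deposited TPM is scaled by effective length and to an equal library sum. Its deposited FPKM, scaled for length and reads, was used only as an alternative. 1 TPM corresponded to a median of 59.4, 53 and 45 counts in protein-coding genes.

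The ligand genes and the 15 lists (receptors, processing enzymes, other chemokines, other cytokines, other engulfment and restraint signals, and the marker lists) were chosen with earlier results of these data known. All 10 ligands, receptors, enzymes and pair partners could be named, and of other lists the 3 highest and up to 2 lowest undetected genes. The rule names 1 more gene, which is not reported here. Differences in log2(TPM + 1), a pseudocount of 1, were tested by exact sign-flip permutation, and this scale understates differences of low genes. Excess spread used expected counts rounded to whole numbers, edgeR 4.0.16 (limma 3.58.1, R 4.3.3), TMM, filterByExpr and the trended dispersion, with the residual deviance set against a chi-square (2 degrees of freedom), called at an adjusted p of 0.05, and was tested on simulated data of 16810 genes. DESeq2 1.42.0, other filters, scalings and TPM minimums, and leaving out each replicate, were alternatives. Gene types came from GENCODE release 29 (92.8% of identifiers matched) and coordinates, 1-based, from RefSeq's GRCh38.p14. Python 3.11.15 and scipy 1.17.1 were used. Intervals and floors cover counting error only.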

Additional observations from a re-analysis of the deposited data

How the results depend on the processing

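No paired analysis was possible because the labels give a single group. The count of 9 detected ligand genes stayed 9 at a TPM minimum of 0.5 or 5, at an FPKM minimum of 1 and without each replicate. All 10 genes kept their place in the order of mean TPM without mitochondrially encoded and ribosomal protein genes (which raised the mean of MIF to 1676 TPM) and without replicate 1, and 8 did without replicate 2 or 3. The genes called for excess spread numbered 265, with 266 under DESeq2 size factors, 270 under DESeq2's dispersion trend, 314 without a filter and 95 to 117 without 1 replicate, where fewer libraries carry the test. Ligand genes called numbered 0 under the first 3 of these and 0 to 1 without 1 replicate, CCL2 without replicate 1 being the exception. Of the 8 pair differences, only CD47 minus CD200 turned sign, from -0.05 to between -0.13 and 0.061 without 1 replicate, the last without replicate 3. CSF1 minus IL34 was 4.40 with a pseudocount of 0.1. Removing the length trend kept the sign of 25 of 27 deviations of a library, and that of MIF in replicate 1 moved from 0.39 to 0.06. Detected microglia markers became 2 at a minimum of 0.5 or without replicate 3, receptors 6 and other chemokines 2 at a minimum of 5, and neuron markers 4 there. Endothelium markers were 4 at 0.5, 0 at 5 and 1 at an FPKM of 1. Depth limits IL34 most, with 8 to 23 counts.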
